A study of Homo sapiens with 8 samples.

Results

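The 10 genes of neuronal splicing control described here, in human LUHMES neurons whose mitochondria were inhibited, are RBFOX1, RBFOX2, RBFOX3, NOVA1, NOVA2, PTBP1, PTBP2, SRRM4, ELAVL2 and ELAVL4. They are 10 of 62826 genes in the deposited gene tables, and 120 of their transcripts could be named out of 202421 named transcripts. The genes were matched by symbol. The set was chosen by a measured value of this same contrast, since the transcript usage of RBFOX3 was among the most changed, so the values of RBFOX3 are given as a description with no test. LUHMES is a conditionally immortalised line of human mesencephalic precursors that leaves the cell cycle and becomes neuron-like once tetracycline shuts off its oncogene. All cells were WT and had spent 6 days in differentiation medium (Advanced DMEM/F12, N-2, P/S) in the presence of tetracycline (1 µg/mL), GDNF (2 ng/mL), dbcAMP (1 mM) and L-glutamine (2 mM). The treated group then received antimycin A at 25 µM, a blocker of respiratory complex III, and oligomycin at 10 µM, a blocker of the ATP synthase, for 8 h. The control group received DMSO vehicle. Each group had 4 libraries, numbered 2 to 5 after their differentiation, and values below follow that order. The series text gives 4 independent batches of cells per group with 4 technical replicates in each, all from 1 cell line.

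These proteins bind pre-mRNA beside alternative exons and decide whether the exon is kept. PTBP1 holds back neuronal exons in precursor cells, and its relative PTBP2 takes over in young neurons. RBFOX proteins bind UGCAUG and usually promote an exon when they bind downstream of it, NOVA proteins bind clusters of YCAY, SRRM4 promotes the very short exons called microexons, and the neuronal ELAVL (Hu) proteins bind U-rich sequence in introns and in mature messages. Many of them also act on their own transcripts, among them PTBP1, PTBP2, RBFOX2 and the ELAVL genes. RBFOX3 is the antigen NeuN, a standard marker of mature neurons.

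The treated libraries held 93.8 to 109 M estimated reads and the vehicle libraries 93.7 to 110.02 M. Vehicle replicate 2 stood apart: mtDNA genes took 13.4% of its reads, against 4.82 to 6.74% in the treated libraries and 3.90 to 5.23% in the other vehicle libraries. Results that rest on it are given with and without it. All 10 neuronal markers examined averaged at least 1 CPM (read counts scaled to a common total with TMM factors), and their summed level was 4396 to 4516 TPM (a level scaled by transcript length) in treated and 4766 to 6239 TPM in vehicle libraries. RBFOX3 and ELAVL4 are 2 of those markers. Of 10 dopaminergic markers 4 averaged at least 1 CPM. The dopamine transporter SLC6A3 averaged 326 TPM in treated and 366 TPM in vehicle libraries, and NR4A2 6.75 and 7.36 TPM. TH was higher in every treated library, at a mean of 24.9 against 10.6 TPM. EN1 was lower in every treated library, at 16.7 against 29.7 TPM. LMX1A and FOXA2 were under 0.1 CPM in every library. Of 5 astrocyte markers only SLC1A3 averaged at least 1 CPM, at 15.1 TPM in treated and 2.05 TPM in vehicle libraries. Summed precursor markers were at 122 to 138 TPM in treated and 133 to 199 TPM in vehicle libraries, and their part in the results was not tested. Within that sum, NES averaged 49.9 TPM in treated and 39.7 TPM in vehicle libraries, and SOX2 0.73 and 0.29 TPM. MKI67, TOP2A, CCNB1 and CDK1 averaged lower in treated libraries. In bulk RNA, fewer cells of a type and less RNA per cell cannot be told apart.

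**Figure D1:**
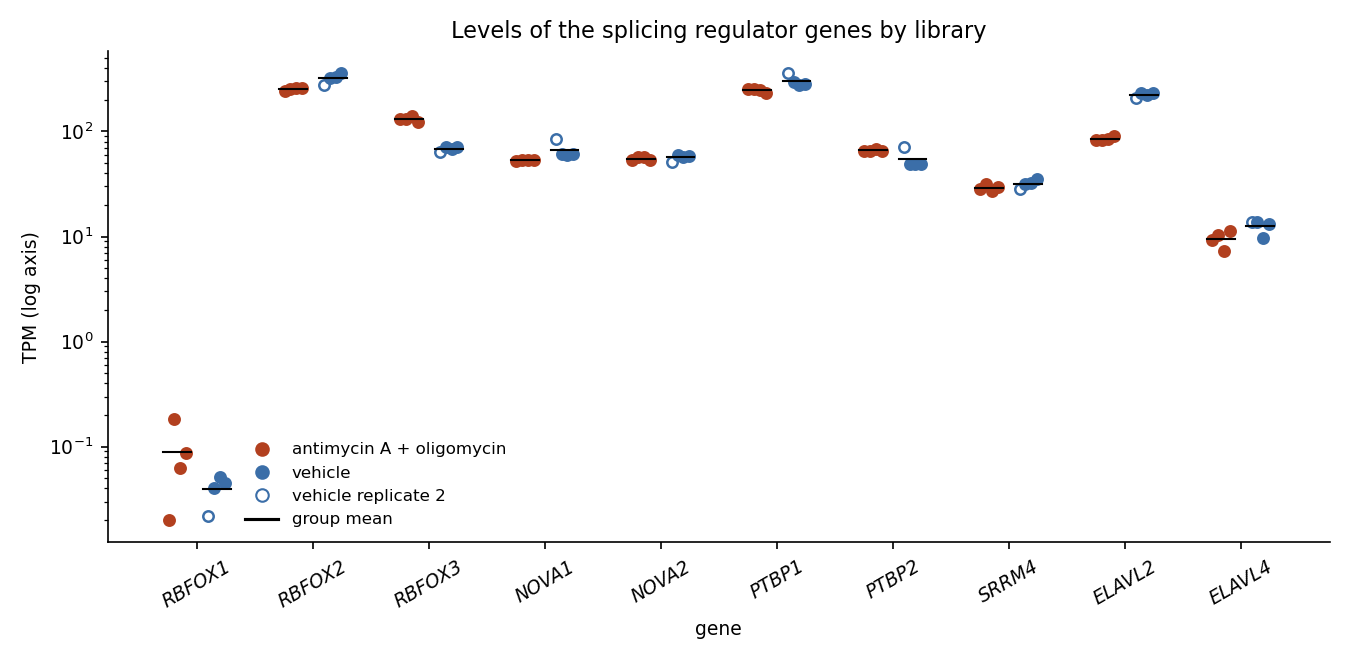
Level of each splicing regulator gene in TPM, on a log axis, with 1 point per library; bars are group means and the open circle is vehicle replicate 2. ELAVL2 was lower and RBFOX3 higher in every treated library, and RBFOX1 was near 0 in all of them.

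Per length, RBFOX2 and PTBP1 were the most abundant regulators and RBFOX1 was all but silent. In treated libraries RBFOX2 averaged 254.5 ± 6.69 TPM and PTBP1 247 ± 11.4 TPM (SD, n = 4), and their ranges overlapped. RBFOX3 followed at 132 ± 6.30 TPM, then ELAVL2 at 85.7 ± 3.97, PTBP2 at 66.0 ± 1.01, NOVA2 at 55.1 ± 2.10 and NOVA1 at 53.3 ± 0.894 TPM, of which only the NOVA pair overlapped. SRRM4 at 29.04 ± 1.77 TPM and ELAVL4 at 9.57 ± 1.67 TPM each lay apart from their neighbours. In vehicle libraries the order was RBFOX2 at 322 ± 34.5, PTBP1 at 305 ± 37.5, ELAVL2 at 224 ± 11.3, RBFOX3 at 68.6 ± 3.44, NOVA1 at 66.7 ± 11.7, NOVA2 at 56.7 ± 3.39, PTBP2 at 54.4 ± 11.4, SRRM4 at 31.9 ± 3.05 and ELAVL4 at 12.6 ± 1.98 TPM. There the pairs RBFOX2 and PTBP1, RBFOX3 and NOVA1, and NOVA2 and PTBP2 overlapped. The order was the same without vehicle replicate 2, and all of these pairs were then apart. ELAVL2 thus stood above RBFOX3 in vehicle libraries and below it in treated libraries. RBFOX1 had 4 to 14 reads per library in treated cells and 4 to 10 in vehicle cells and was not tested.

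At gene level, 3 of the 8 regulators tested, with RBFOX3 left out, passed the threshold, 1 higher and 2 lower, where 57.9% of 19785 genes did, 27.7% higher and 30.2% lower (edgeR quasi-likelihood test, Benjamini-Hochberg adjusted p under 0.05). The share among the regulators was no larger than that over all genes, and their median log2 fold change was -0.11, against -0.020 over all genes. ELAVL2 fell the most. RBFOX2 fell less, PTBP2 rose, and PTBP1, SRRM4, NOVA1, NOVA2 and ELAVL4 did not pass. The CPM ranges of the groups were apart for the same 3 genes, as they were for 53.4% of genes. Without vehicle replicate 2, 3 of 9 regulators passed, 1 higher and 2 lower, where 62.9% of genes did, 30.6% higher and 32.4% lower.

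ELAVL2 (ENSG00000107105.15, chr9:23690104-23826337, hg38, minus strand) encodes HuB, a neuronal RNA-binding protein that stabilises messages and alters splicing. It had 136, 138, 140.5 and 156 CPM in treated libraries, against 331, 331, 314 and 326 CPM in vehicle libraries. Every treated library lay far below the lowest vehicle library. The log2 fold change was -1.19 ± 0.062 (SE), a 0.438-fold level, with an adjusted p of 2.41e-07 (edgeR quasi-likelihood test), and it was -1.19 without vehicle replicate 2. ELAVL4 (ENSG00000162374.18, chr1:50048014-50203786, plus strand) encodes HuD, which has the same kind of role and is best known for binding the GAP43 message. It had 12.2, 13.6, 10.3 and 14.9 CPM in treated libraries, against 23.1, 17.1, 13.0 and 15.4 CPM in vehicle libraries, and the groups overlapped. Its log2 fold change of -0.43 ± 0.172 did not pass (adjusted p = 0.0551, edgeR quasi-likelihood test), and it was -0.25 without vehicle replicate 2. Over the alternatives its adjusted p ran from 0.0184 to 0.154, past the threshold with library totals (0.0184), no filter on low counts (0.0315), DESeq2 (0.0404) and the replicate block (0.0484), and without treated replicate 5 (0.0452) or vehicle replicate 4 (0.0186). The authors' deposited table gives ELAVL4 a log2 fold change of -0.47 with a false discovery rate of 0.0112.

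RBFOX2 (ENSG00000100320.24, chr22:35738736-36028425, minus strand) is the broadly expressed member of its family. It had 635, 649.9, 644 and 669.7 CPM in treated libraries, against 864, 778, 818 and 844 CPM in vehicle libraries, with no overlap. The log2 fold change was -0.35 ± 0.058 with an adjusted p of 0.000552 (edgeR quasi-likelihood test). RBFOX3 (ENSG00000167281.20, chr17:79089345-79516148, minus strand) went the other way. It had 144, 140.3, 146 and 113 CPM in treated libraries, against 70.4, 69.1, 67.9 and 67.7 CPM in vehicle libraries. The lowest treated library, replicate 5, still lay above every vehicle library. The log2 fold change was 0.98 ± 0.083, or 1.98-fold, and 0.89 with library totals in place of TMM factors. The family thus held a near-silent member, one that fell and one that was higher in every treated library.

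PTBP2 (ENSG00000117569.20, chr1:96721665-96823738, plus strand), the neuronal polypyrimidine tract-binding protein, had 92.4, 94.0, 96.1 and 95.0 CPM in treated libraries, against 83.9, 63.8, 66.3 and 63.7 CPM in vehicle libraries. The groups did not overlap, although vehicle replicate 2 lay well above the other vehicle libraries. It rose by a log2 fold change of 0.44 ± 0.090, with an adjusted p of 0.00183 (edgeR quasi-likelihood test). Without vehicle replicate 2 the log2 fold change was 0.54. The call was lost with an offset for effective length (0.30 ± 0.187, adjusted p = 0.192), a setting under which the 365-base transcript of vehicle replicate 2 described below counts by its length. In TPM the ranges overlapped, at 65.2 to 67.5 in treated and 48.6 to 71.6 in vehicle libraries. They were apart without vehicle replicate 2, since the other vehicle libraries were at 48.6 to 48.9 TPM.

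PTBP1 (ENSG00000011304.22, chr19:797075-812327, plus strand), the repressor of neuronal exons in precursor cells, did not pass the test. It had 393, 382, 378 and 307 CPM in treated libraries, against 348, 401, 394 and 382 CPM in vehicle libraries, and the groups overlapped. The log2 fold change was -0.063 ± 0.086 (adjusted p = 0.552, edgeR quasi-likelihood test), and 0.014 without treated replicate 5. In TPM the groups did not overlap, at 230.5 to 255 in treated and 279 to 359 in vehicle libraries, and with the effective-length offset the log2 fold change was -0.27 ± 0.147 (adjusted p = 0.148).

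NOVA1 (ENSG00000139910.20, chr14:26443093-26597754, minus strand) had 65.7, 68.1, 69.1 and 72.1 CPM in treated libraries, against 99.96, 70.4, 68.4 and 69.2 CPM in vehicle libraries. In CPM, vehicle replicate 2 was the one high library, and the others of both groups intermixed. The log2 fold change was -0.16 ± 0.118 (adjusted p = 0.258, edgeR quasi-likelihood test), and -0.015 without that library. In TPM the NOVA1 groups did not overlap, at 52.0 to 53.9 in treated libraries, against 84.3 in vehicle replicate 2 and 60.3 to 61.5 in the other vehicle libraries. With the effective-length offset the log2 fold change of NOVA1 was -0.30 ± 0.170 (adjusted p = 0.163, edgeR quasi-likelihood test). NOVA2 (ENSG00000104967.8, chr19:45933734-45973546, minus strand), its cortical relative, had 207 to 243 CPM in treated and 217 to 243 CPM in vehicle libraries, with a log2 fold change of 0.027 ± 0.070, which turned to -0.069 with library totals only. SRRM4 (ENSG00000139767.10, chr12:118981495-119163051, plus strand), the activator of microexons, had 117 to 133 CPM in treated and 119 to 131 CPM in vehicle libraries. Its log2 fold change was -0.034 ± 0.062 (adjusted p = 0.660, edgeR quasi-likelihood test). For these 3 genes the adjusted p ran from 0.0488 to 0.975 over the alternatives, and the lowest, for NOVA1, came with library totals only.

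**Figure D2:**
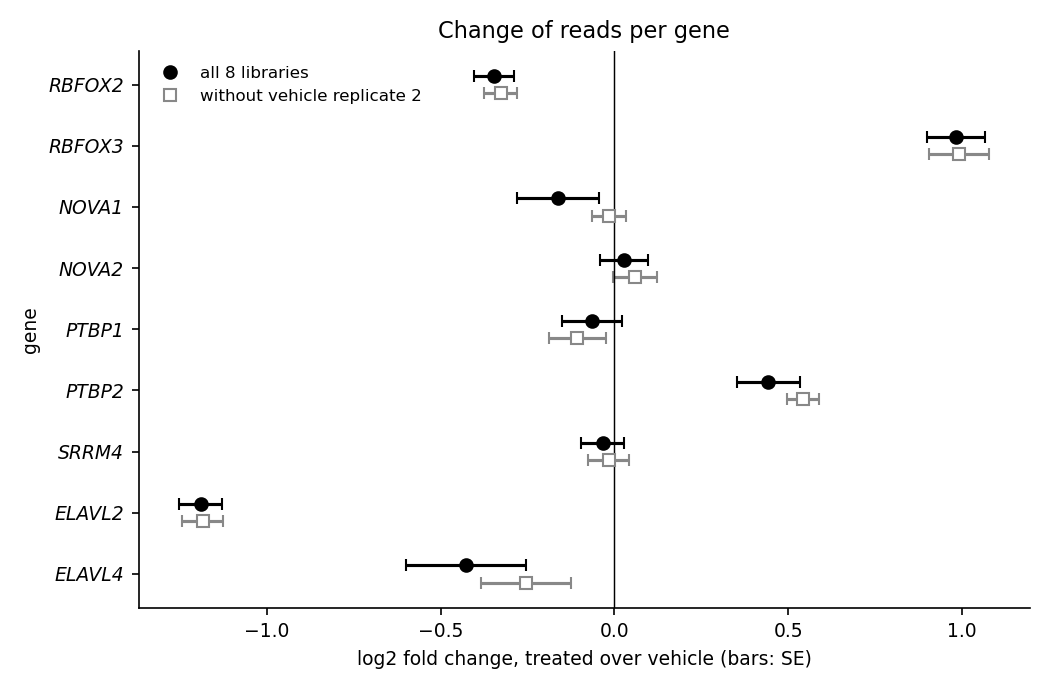
Log2 fold change of treated over vehicle for each regulator tested, with its SE, from all 8 libraries (filled circles) and without vehicle replicate 2 (open squares). ELAVL2 and RBFOX2 lie left of 0 and RBFOX3 and PTBP2 right of it in both fits, while NOVA1 moves to -0.015 and ELAVL4 to -0.25 without that library.

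Which transcripts each gene used was read from 2 measures. Transcript usage compares a transcript's reads with the rest of its gene. Exon inclusion is the share of TPM in transcripts that hold a cassette exon, among those that hold or precisely skip it. No regulator passed the gene-wise usage test (0 of 8, where 8.6% of 11746 genes passed; edgeR diffSpliceDGE with Simes p-values). An unadjusted p under 0.05 was found for 2 of them, a share not counted over all genes. With limma voom 2 of 8 passed, where 3376 of 11746 genes did. Without vehicle replicate 2, PTBP1 (adjusted p = 0.00492) and ELAVL2 (adjusted p = 0.000141, edgeR) passed among 7 regulators tested, where 12.8% of genes did. Per transcript, 1 of 62 tested passed, where 2.1% of 65284 did, 1.05% higher and 1.04% lower, and without vehicle replicate 2 it was 3 of 59, 2 higher and 1 lower, where 3.69% did, 2.44% higher and 1.26% lower. Of 13 cassette exons tested in the regulators, 6 passed, 1 higher and 5 lower (limma on log2 odds, adjusted p under 0.05), where 24% of 8595 exons did, 4.47% higher and 19.5% lower. Without vehicle replicate 2 it was again 1 higher and 5 lower, where 35.6% of exons passed, 6.82% higher and 28.8% lower. These 13 are not independent, since the 2 exons of ELAVL2 and a pair of overlapping exons of PTBP1 are each set against the same skipping transcripts.

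The PTB genes carry well-studied alternative exons. In PTBP1 the exon at chr19:805492-805569 lies in the linker between successive RNA-binding domains, is a whole number of codons long, and is kept in the long protein isoform. A shorter form of it starts at an internal acceptor and holds its last 57 bases. The 34-base exon downstream of it, and its counterpart in PTBP2, are not a whole number of codons, so transcripts that skip them change frame, and PTB proteins are known to repress them. The PTBP1 exon is shown with the part from the internal acceptor in capitals, and the 34-base pair with the 9 bases that differ in capitals, all in the sense of the gene.
PTBP1 78-base exon: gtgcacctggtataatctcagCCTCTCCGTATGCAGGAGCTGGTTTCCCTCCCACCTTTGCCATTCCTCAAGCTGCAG
PTBP1 34-base exon: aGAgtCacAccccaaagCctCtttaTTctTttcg
PTBP2 34-base exon: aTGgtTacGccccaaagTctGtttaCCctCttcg
The 34-base exons share 25 of 34 bases (73.5%).

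The PTBP1 78-base exon and the PTBP2 34-base exon were both included less in treated neurons. Inclusion of the PTBP1 78-base exon fell to 68.8, 68.6, 68.3 and 66.7% in treated libraries, against 88.1, 78.3, 77.5 and 78.9% in vehicle libraries. No treated library reached the lowest vehicle library, and vehicle replicate 2 was the highest of all. The log2 odds changed by -1.004 ± 0.246 (adjusted p = 0.0207, limma), and by -0.75 without vehicle replicate 2 (adjusted p = 0.00181). The call was lost on estimated counts in place of TPM (0.0661), without treated replicate 3, 4 or 5 (0.0521 to 0.0538), and where any transcript that lacks the exon counted as skipping (-0.20, 0.782). The 57-base form, set against the same skipping transcripts, was at 3.06 to 4.26% in treated and 6.81 to 9.201% in vehicle libraries (-1.01 ± 0.182, adjusted p = 0.00604, limma; -0.21 and adjusted p = 0.820 under that wider definition).

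The main transcript without the 78-base exon, PTBP1-201, held 25.5, 25.7, 26.2 and 27.04% of the gene's TPM in treated libraries, against 4.10, 16.5, 17.8 and 16.7% in vehicle libraries. Its counterpart with the exon, PTBP1-203, held 38.3, 39.6, 36.4 and 37.7% in treated libraries, against 18.3, 46.9, 47.8 and 49.4% in vehicle libraries. Vehicle replicate 2 was low for both, and 43.4% of its PTBP1 TPM was in PTBP1-213, a 357-base transcript at 0% in all treated libraries and at most 0.328% in the other vehicle libraries. The usage of PTBP1-201 had a log2 change of 0.81 (adjusted p = 0.0523, diffSpliceDGE of edgeR), and of 0.62 without vehicle replicate 2 (adjusted p = 0.00165). PTBP1-202, which holds the exon, was at 15.9 to 19.6% in treated and 14.2 to 18.5% in vehicle libraries.

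The PTBP2 34-base exon (chr1:96806419-96806452) was included in 79.1, 79.6, 77.7 and 79.1% of the TPM in treated libraries, against 88.3, 89.5, 90.6 and 90.5% in vehicle libraries. The groups lay far apart, and vehicle replicate 2 was close to the other vehicle libraries here. The log2 odds fell by 1.10 ± 0.132 (adjusted p = 0.00122, limma), and the call held under all 13 alternatives, with adjusted p from 0.000398 to 0.0177. Transcripts with no match held 23.7 to 31.5% of PTBP2 TPM in treated and 20.2 to 34.8% in vehicle libraries. Whether those hold the exon is not known here, and no alternative included them. The skipping transcripts are all annotated as noncoding. The largest of them, PTBP2-207, held 9.87, 11.2, 8.70 and 9.94% of the gene's TPM in treated libraries, against 3.99, 3.54, 6.35 and 3.97% in vehicle libraries. PTBP2-201 and PTBP2-202, which hold the exon, varied widely within groups, at 12.5 to 22.5% and 27.99 to 37.7% in treated and at 7.63 to 23.3% and 22.3 to 34.3% in vehicle libraries. In vehicle replicate 2, PTBP2-206, a noncoding transcript of 365 bases, took 40.2% of the gene, against 0% in every other library. The PTBP1 34-base exon was at 99.4 to 99.7% in treated libraries, against 49.1% in vehicle replicate 2 and 99.1 to 99.8% in the other vehicle libraries, and did not pass (adjusted p = 0.382, limma; 0.520 without vehicle replicate 2).

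Neuronal ELAVL genes share a short exon in the hinge before the last RNA-binding domain, a region tied to their place in the nucleus or cytoplasm. The ELAVL2 exon at chr9:23693448-23693486 and the ELAVL4 exon at chr1:50197429-50197467 are both 39 bases and share 34 of them (87.2%), as shown here with the 5 bases that differ in capitals.
ELAVL2 39-base exon: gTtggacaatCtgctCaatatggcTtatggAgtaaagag
ELAVL4 39-base exon: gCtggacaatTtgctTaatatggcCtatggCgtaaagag
Inclusion of the ELAVL2 exon fell to 66.9, 66.5, 68.2 and 63.6% in treated libraries, against 87.9, 76.7, 75.4 and 76.1% in vehicle libraries. The groups did not overlap and vehicle replicate 2 was again highest. The log2 odds changed by -0.98 ± 0.276 (adjusted p = 0.0345, limma), and by -0.69 without vehicle replicate 2 (adjusted p = 0.00364). The call was lost on estimated counts (0.0821, limma) and with the replicate block (0.0602). It was also lost on leaving out any treated library or vehicle replicate 3 (0.0535 to 0.0839). The corresponding ELAVL4 exon could not be tested as a cassette exon.

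The ELAVL2 transcript that lacks the 39-base exon, ELAVL2-201, held 26.0, 27.1, 25.1 and 29.6% of the gene's TPM in treated libraries, against 6.42, 16.7, 16.97 and 16.4% in vehicle libraries. It was the transcript of the regulators that passed in usage, with a log2 change of 0.83 (adjusted p = 0.0478, diffSpliceDGE of edgeR). Leaving out any library other than vehicle replicate 2 ended that call (adjusted p from 0.0723 to 0.165, diffSpliceDGE). So did keeping transcripts with at least 1 read in 4 libraries (0.104), and the replicate block. Without vehicle replicate 2 the change was 0.64 (adjusted p = 0.00269, diffSpliceDGE). ELAVL2-202 held 9.05, 9.42, 8.52 and 9.01% in treated libraries, against 11.3, 13.9, 15.7 and 16.4% in vehicle libraries (log2 usage -0.81, adjusted p = 0.0846; -0.82 and adjusted p = 9.03e-05 without vehicle replicate 2). It carries a 91-base exon ahead of the coding part, at chr9:23765009-23765099, that ELAVL2-201 skips. Inclusion of that exon between these 2 transcripts was 25.8, 25.8, 25.3 and 23.3% in treated and 63.9, 45.4, 48.0 and 49.98% in vehicle libraries (log2 odds -1.63 ± 0.234, adjusted p = 0.00234, limma; -0.79 where any transcript without it counted as skipping). ELAVL2-204, the main transcript with the 39-base exon, was at 28.8 to 33.4% in treated and 32.8 to 35.3% in vehicle libraries.

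RBFOX genes share a 93-base exon within the RNA recognition motif, and RBFOX transcripts that skip it encode proteins known to bind RNA poorly. The RBFOX3 exon (chr17:79103162-79103254) and the RBFOX2 exon (chr22:35768257-35768349) are both in frame and share 68 of 93 bases (73.1%), shown with the 25 that differ in capitals.
RBFOX3 93-base exon: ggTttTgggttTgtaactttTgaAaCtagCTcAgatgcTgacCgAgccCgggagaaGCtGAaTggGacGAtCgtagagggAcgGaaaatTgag
RBFOX2 93-base exon: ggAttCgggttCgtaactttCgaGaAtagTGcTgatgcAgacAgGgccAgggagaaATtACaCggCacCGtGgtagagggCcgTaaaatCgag
The RBFOX3 exon was included in 46.2, 45.4, 45.4 and 59.2% of the TPM in treated libraries, against 57.8, 43.2, 40.3 and 44.1% in vehicle libraries. The groups overlapped, with 1 high library in each, and the log2 odds differed by 0.15 ± 0.270. They were apart without vehicle replicate 2, and the log2 odds then differed by 0.36. The higher level of RBFOX3 in treated libraries was spread over transcripts with and without this exon: RBFOX3-206, which skips it, was at 25.5, 26.8, 29.1 and 26.0 TPM in treated and 7.76, 10.6, 11.4 and 10.8 TPM in vehicle libraries. RBFOX3-203, which holds it, was at 10.5 to 11.7 TPM in treated and 2.85 to 7.61 TPM in vehicle libraries.

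The transcript behind the usage change for which RBFOX3 was listed was RBFOX3-213, at 5.74, 5.17, 7.25 and 21.2 TPM in treated libraries and listed at 0 in all 4 vehicle libraries. Treated replicate 5 held much more of it than the others, 17.03% of the gene against 3.94 to 5.19%. With 555 to 2084 estimated reads in treated libraries it enters the test through that group alone, and without any 1 treated library it falls under the filter of 10 reads in 4 libraries. Transcripts with no match in the annotation used for names held 36.4 to 47.8% of RBFOX3 TPM in treated and 49.0 to 52.0% in vehicle libraries, so much of the gene is not resolved here.

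**Figure D3:**
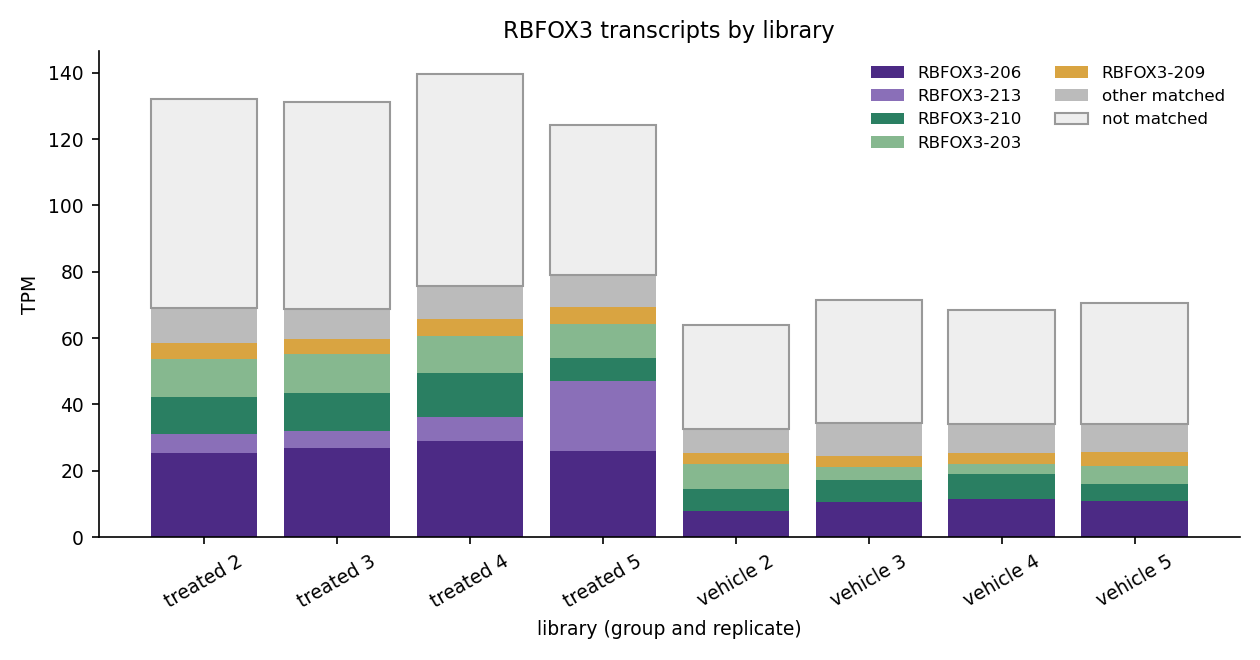
RBFOX3 TPM in each library, stacked by transcript; light bars are transcripts with no match in the annotation used for names. RBFOX3-206 was the largest named transcript in all 8 libraries, and RBFOX3-213 was present in the 4 treated libraries and listed at 0 in the 4 vehicle libraries.

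RBFOX2 spread its TPM over many transcripts. RBFOX2-209 held 25.4, 23.98, 22.5 and 21.7% in treated libraries, against 32.7, 32.1, 30.3 and 32.4% in vehicle libraries, without overlap, although its usage among named transcripts did not pass (adjusted p = 1.0, diffSpliceDGE of edgeR). Transcripts with no match held 28.1 to 34.8% of the gene in treated and 18.2 to 23.8% in vehicle libraries. RBFOX2-205 was at 6.46 to 8.83% in treated and 9.50 to 12.4% in vehicle libraries, and RBFOX2-212, of 789 bases, at 16.7 to 22.8% and 6.01 to 18.9%. A 32-base exon (chr22:35750426-35750457), carried by RBFOX2-202 alone, was the one cassette exon of the regulators to rise, at 5.48, 6.17, 7.67 and 7.28% in treated libraries, against 3.80, 5.17, 4.33 and 4.30% in vehicle libraries (log2 odds 0.64 ± 0.167, adjusted p = 0.0268, limma). The groups lay close together without overlap. The call was lost on estimated counts (0.0806, limma) and with the replicate block (0.0649). It was also lost on leaving out any of treated libraries 3, 4 and 5 or vehicle libraries 4 and 5 (0.0532 to 0.0789). The 40-base exon (chr22:35756105-35756144) was at 71.1 to 81.7% in treated and 76.8 to 79.7% in vehicle libraries (log2 odds 0.044 ± 0.211), and a 120-base exon at 2.43 to 4.98% and 3.83 to 7.15% (-0.15 ± 0.262). Neither passed.

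The exons of NOVA1 and SRRM4 that could be tested did not pass. The 72-base exon of NOVA1 (chr14:26472320-26472391), which is known to be regulated by NOVA itself, was included at 53.9, 55.0, 53.7 and 48.8% in treated libraries, against 73.9, 52.9, 53.9 and 54.6% in vehicle libraries. Vehicle replicate 2 alone was high, and the log2 odds of -0.37 ± 0.298 became -0.055 without it. In that library NOVA1-210, a 592-base transcript with the exon, held 44.6% of the gene, against 14.9 to 25.1% in treated and 21.3 to 24.2% in the other vehicle libraries. The longer NOVA1-204 held 17.97% there, against 31.8 to 35.3% in treated and 33.5 to 35.1% in the other vehicle libraries. A 102-base NOVA1 exon found in transcripts annotated as targets of nonsense-mediated decay was at 2.41 to 3.49% in treated and 1.44 to 3.44% in vehicle libraries. A 16-base microexon of SRRM4 (chr12:119144539-119144554), also in a transcript of that class, was at 7.07 to 8.93% in treated and 7.42 to 13.1% in vehicle libraries. SRRM4-201 held 89.6 to 91.8% of its gene in treated and 83.7 to 88.5% in vehicle libraries. For NOVA2, transcripts with no match held 60.7 to 76.1% of the TPM in treated and 25.1 to 81.1% in vehicle libraries, so its usage is not resolved here. An 87-base exon of ELAVL4, from 1 noncoding transcript at low level, was at 31.5 to 38.3% in treated and 19.2 to 46.1% in vehicle libraries and did not pass.

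**Figure D4:**
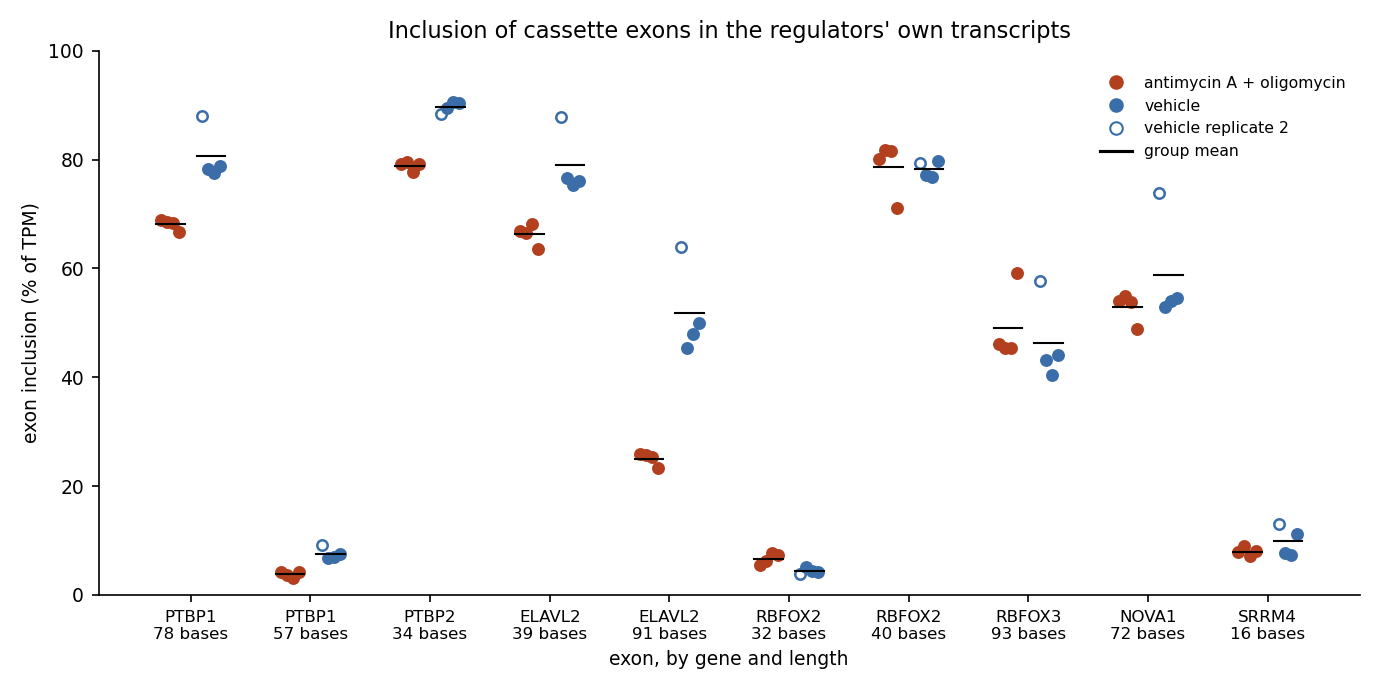
Inclusion of 10 cassette exons in the regulators' own transcripts, as a percentage of TPM, with 1 point per library, bars at group means and vehicle replicate 2 as an open circle. The exons of PTBP1, PTBP2 and ELAVL2 shown were lower in every treated library than in any vehicle library. The RBFOX2 32-base exon was higher, and the other 4 overlapped. Groups also overlapped for exons not shown, the PTBP1 34-base, ELAVL4 87-base, NOVA1 102-base and RBFOX2 120-base exons. Of all exons tested, 30.6% were without overlap.

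The share of TPM in transcripts annotated as protein coding, among the named transcripts of each gene, was compared as well. Transcripts with no match were left out of this share. None of 7 regulators passed in either direction, where 14.3% of 7008 genes did, 3.05% higher and 11.3% lower (limma on log2 odds), and 1 had an unadjusted p under 0.05. That one was ELAVL2, at 87.9, 90.4, 87.8 and 90.5% in treated libraries, against 82.8, 85.7, 84.8 and 85.8% in vehicle libraries. Its groups did not overlap (log2 odds 0.52 ± 0.152, adjusted p = 0.0549, limma; 0.0444 without vehicle replicate 2). PTBP2 was at 75.8, 76.3, 75.7 and 77.7% in treated libraries, against 41.0, 84.1, 88.4 and 87.2% in vehicle libraries. Vehicle replicate 2 alone was below the treated libraries, and the other vehicle libraries were all above them. Without it the log2 odds were -0.92 (adjusted p = 0.00234, limma), against -0.15 (0.905) with it. Then 2 of 7 regulators passed, 1 higher (ELAVL2) and 1 lower (PTBP2), where 27.4% of genes did, 5.32% higher and 22% lower. RBFOX3 was at 92.4 to 95.6% in treated and 88.6 to 90.9% in vehicle libraries. PTBP1 was at 85.5 to 87.7% in treated and 85.001 to 90.03% in vehicle libraries.

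Other regulators of splicing changed in both directions. Of 48 listed genes 46 were tested, with 2 entries under the symbol MATR3, and 14 rose, 15 fell and 18 did not pass, with a median log2 fold change of 0.011. Over all genes 27.7% rose and 30.2% fell. The 3 rises with the smallest adjusted p were those of KHDRBS3, a STAR-family splicing factor, TIAL1, a U-rich RNA binder, and MBNL2, a factor of developmental exon switches. KHDRBS3 had 32.6, 33.9, 31.4 and 33.1 CPM in treated libraries, against 16.004, 15.5, 14.4 and 14.1 CPM in vehicle libraries (log2 fold change 1.13 ± 0.068, adjusted p = 5.68e-07, edgeR quasi-likelihood test). MBNL2 had 57.9, 59.1, 62.96 and 64.3 CPM in treated libraries, against 26.6, 20.5, 17.4 and 17.6 CPM in vehicle libraries (1.57 ± 0.129), and TIAL1 averaged 205 ± 5.20 CPM in treated and 124 ± 2.07 CPM in vehicle libraries (0.73 ± 0.052). The 3 falls were those of HNRNPU (-0.82 ± 0.057), HNRNPM (-0.74 ± 0.060), nuclear ribonucleoproteins, and DDX5 (-0.52 ± 0.060), an RNA helicase. For all 6 the CPM ranges of the groups did not overlap, as for 53.4% of genes. Of the closest relatives of the 10 regulators, PTBP3 averaged 83.2 CPM in treated and 121 CPM in vehicle libraries (-0.54 ± 0.079, adjusted p = 0.000216, edgeR quasi-likelihood test). ELAVL3 averaged 1032 and 912 CPM (0.18 ± 0.070, adjusted p = 0.0487), ELAVL1 181 and 159 CPM (0.19 ± 0.070, 0.0370), and SRRM3, a relative of SRRM4, 141 and 97.3 CPM (0.53 ± 0.110, 0.00206).

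Genes known as splicing targets of the 10 regulators were read for exon inclusion. In 44 of 57 listed genes 127 cassette exons were tested, of which 8 rose and 24 fell, in 19 genes, where 4.47% of all exons tested rose and 19.5% fell. Their median log2 odds change was -0.14, against -0.22 over all exons. Without vehicle replicate 2, 11 rose and 35 fell, where 6.82% and 28.8% of all exons did. With all 8 libraries, the calls by list were 0 higher and 7 lower of 27 exons for PTBP, and 1 and 6 of 35 for RBFOX. They were 0 and 2 of 15 for NOVA, 2 and 6 of 24 for SRRM4, and 5 and 3 of 26 for ELAVL. Falls outnumbered rises among all exons too, and no list was tested against them. In gene-wise usage, 2 of 15, 5 of 12, 1 of 9, 4 of 11 and 3 of 8 genes passed in the same order of lists, where 8.6% of all genes tested did. The counts include LRP8 (NOVA list) and EIF4G1 and CPEB4 (SRRM4 list). Their leading transcripts entered the test mainly through the group where they are high, as described below. Such calls were not counted over all genes. Whether the exons tested are those the regulators bind was not tested.

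Among these exons, several were named after their values were seen. The kinesin gene KIF21A, listed for RBFOX, had 2 short exons that fell. The one at chr12:39315932-39315970, of 39 bases, was included at 24.2, 24.4, 26.3 and 25.2% in treated libraries, against 60.8, 45.3, 49.3 and 57.6% in vehicle libraries (log2 odds -1.57 ± 0.177, adjusted p = 0.000937, limma). The other, a 21-base microexon, was at 72.1, 72.4, 75.1 and 74.5% in treated libraries, against 90.9, 85.7, 85.6 and 89.1% in vehicle libraries (-1.32 ± 0.186, adjusted p = 0.00212). A second 39-base exon of KIF21A, at chr12:39346466-39346504, was at 14.4 to 18.8% in treated and 15.5 to 21.6% in vehicle libraries and did not pass (adjusted p = 0.298, limma), nor did the other 4 exons tested in this gene. The 63-base exon of NF1, the neurofibromin gene, whose skipping in neurons is known to be promoted by Hu proteins, was at 16.1, 12.3, 11.2 and 13.8% in treated libraries, against 36.3, 24.02, 35.7 and 32.9% in vehicle libraries (-1.52 ± 0.220, adjusted p = 0.00239). The 36-base exon of APLP2, an amyloid precursor-like gene listed for NOVA, was at 11.6, 12.6, 12.3 and 11.7% in treated libraries, against 23.3, 20.7, 18.4 and 18.6% in vehicle libraries (-0.88 ± 0.142, adjusted p = 0.00397). For the 4 exons that fell here, no treated library overlapped the vehicle group, and 30.6% of all exons tested were without overlap. These exons, each a whole number of codons, read as follows in the sense of the gene, at chr12:39330242-39330262 for KIF21A, chr17:31252938-31253000 for NF1 and chr11:130137256-130137291 for APLP2.
KIF21A 21-base exon: atctagatagcgtaccattag
NF1 63-base exon: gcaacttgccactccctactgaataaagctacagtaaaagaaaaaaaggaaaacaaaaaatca
APLP2 36-base exon: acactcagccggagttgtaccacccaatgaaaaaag

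By smallest adjusted p of usage, the genes of each list were EIF4G1 and CPEB4 (SRRM4 list), EIF4A2 and HNRNPD (ELAVL), ATP5F1C and PICALM (RBFOX), SPAG9 and RTN4 (PTBP) and LRP8 (NOVA). EIF4A2-203, a transcript annotated for nonsense-mediated decay from a gene of translation initiation, held 12.9 ± 0.577% of its gene in treated and 4.09 ± 0.364% in vehicle libraries (adjusted p = 9.03e-08, diffSpliceDGE of edgeR with Simes p-values). HNRNPD-206 held 9.23 ± 0.769% and 1.84 ± 0.724% (2.51e-07), and ATP5F1C-210, from the gene of an ATP synthase subunit, 6.21 ± 0.676% and 1.04 ± 0.256% (6.05e-05). CPEB4-208 held 5.07 ± 0.408% of its gene in treated libraries, against 0.417% in vehicle replicate 2 and 0% in the other vehicle libraries. EIF4G1-210, the leading transcript of its gene, held 0% in all treated and 0.464 to 2.87% in vehicle libraries. Each entered the test mainly through the group where it is high, so both are given as a description without a p-value. LRP8-210 was at 0 to 0.870% in treated libraries, against 34.4% in vehicle replicate 2 and 1.26 to 2.23% in the other vehicle libraries. It too entered the test mainly through the group where it is high, and is given as a description. The PICALM call was lost without vehicle replicate 2 (adjusted p = 0.0791, diffSpliceDGE of edgeR with Simes p-values). Leaving out 1 treated or vehicle library or another setting ended those of SPAG9, RTN4 and LRP8. The largest adjusted p was 0.158 for SPAG9 and 0.121 for RTN4.

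Microexons, the class that SRRM4 activates, changed in both directions. Of 352 cassette exons of at most 27 bases, 19 rose (5.398%) and 42 fell (11.9%), where 4.47% of all exons rose and 19.5% fell. The median log2 odds change was -0.13, against -0.22 over all exons, and the difference from longer exons was not tested. In EIF4G1, a gene on the SRRM4 list, a 21-base exon was at 14.3, 17.5, 15.1 and 13.2% in treated libraries, against 29.7, 27.5, 26.2 and 26.6% in vehicle libraries (-1.07 ± 0.146, adjusted p = 0.00189, limma). In ITSN1, of the same list, a 15-base exon was at 26.1, 30.9, 27.6 and 31.0% in treated libraries, against 19.9, 23.9, 23.4 and 19.8% in vehicle libraries (0.54 ± 0.151, adjusted p = 0.0334). Both were named after their values were seen. In CLASP1, also listed, a 24-base exon rose (0.68, adjusted p = 0.0266, limma) and another fell (-0.41, 0.0468). Listed microexons of CPEB4, UNC13B, EIF4G3 and APBB1 did not pass (adjusted p from 0.106 to 0.973, limma), nor did a 3-base and a 27-base exon of CLASP1.

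**Figure D5:**
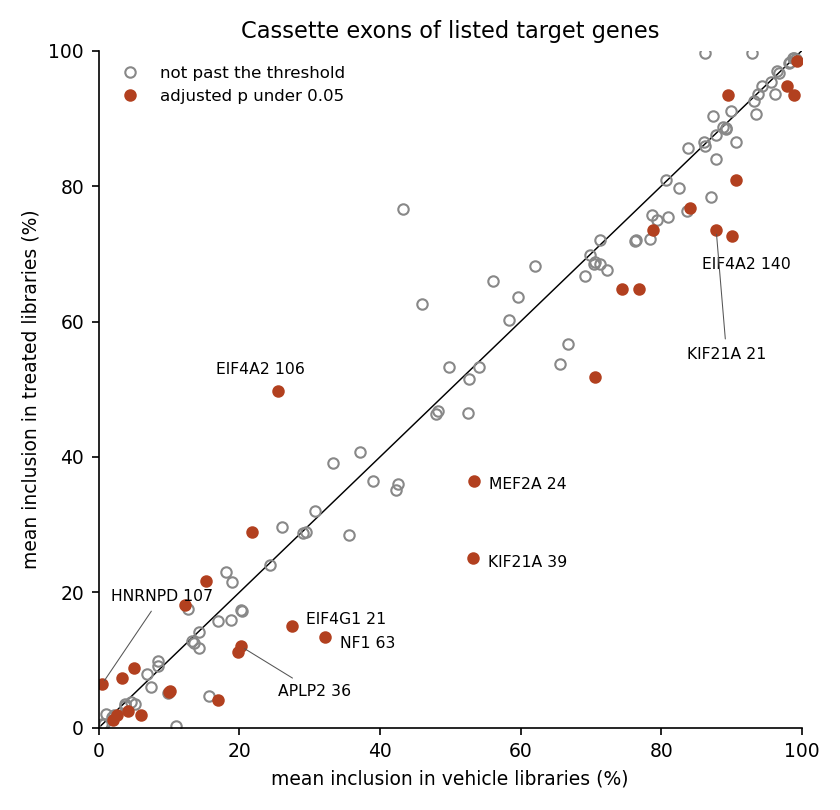
Mean inclusion of each of 127 cassette exons in the listed target genes, in treated libraries (vertical axis) against vehicle libraries (horizontal axis), in percent; filled points passed at an adjusted p under 0.05 and labels give the gene and exon length in bases. More filled points lie under the diagonal (24) than above it (8), with KIF21A, MEF2A and NF1 exons furthest under it. Falls outnumbered rises over all 8595 exons tested too, at 19.5% lower and 4.47% higher.

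Of 11408 genes with a symbol and a mean of at least 5 CPM, those whose log2 CPM followed that of RBFOX3 most closely over the 8 libraries were C2CD2L, SMARCB1 and SYVN1 (Pearson's r = 0.998 for each). This is a description: the 8 points form the treated and vehicle clusters, and any gene with a like step between them scores high. C2CD2L averaged 82.3 CPM in treated and 40.01 CPM in vehicle libraries, SMARCB1 236 and 166 CPM, and SYVN1 140.3 and 51.7 CPM.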

How the data were processed

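RNA-seq of poly(A) RNA (KAPA mRNA HyperPrep, from 1.3 µg of total RNA, per the labels' protocols) was analysed in 8 libraries. The authors deposited estimated counts, effective lengths and TPM per gene and per transcript, per the file headers. No source used here names the quantifier. HISAT2, SAMtools, StringTie and hg38 appear, without roles, per the submitters' processing notes. For coding genes a further table deposited by the authors gives a signal per library in an unnamed unit, with a log2 fold change, p-value and false discovery rate, of which the fold change and rate are quoted.

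Estimated counts were rounded. Genes were filtered with filterByExpr, scaled with TMM factors and tested with the quasi-likelihood test of edgeR 4.0.16 in R 4.3.3 without covariates. Usage was tested with diffSpliceDGE, keeping a transcript if 4 or more libraries held 10 reads or more of it. Coding share and exon inclusion were tested with limma 3.58.1 on the log2 odds of summed TPM, with 0.5 TPM added to each side and a mean of at least 1 TPM in each sum. Usage log2 changes are relative to the gene's average. P-values were adjusted by Benjamini-Hochberg over each whole table. Transcripts were named through GENCODE release 29 by identifier, which also gave exons, coordinates and sequences. The sequences come from its transcript file, not from the reads. No test carries the uncertainty of the quantifier's split of reads between transcripts.

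The genes and lists were chosen with earlier results of these data known, and the cassette exon analysis and its definition of skipping were chosen after values were seen. Named were all 10 genes, their transcripts at 10% or more of the gene's TPM or past the usage threshold, up to 3 rising and 3 falling other regulators, up to 2 targets per regulator, and the 3 genes most like RBFOX3. Whether same-numbered libraries share a batch is not given. Other normalisations, filters, pseudocounts, a replicate block, DESeq2 1.42.0 and leaving out each library were tried. The scripts were tested on simulated data.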

Additional observations from a re-analysis of the deposited data

Results flagged for a closer look

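In 101 groups of 4 libraries, 18 held 1 library far from the other 3, of which 13 were vehicle replicate 2. Chance alone gives one in about 5% of groups. In vehicle replicate 2, NOVA1 was at 99.96 CPM (others 68.4 to 70.4) and PTBP2 at 83.9 CPM (others 63.7 to 66.3). Of transcript shares of the gene's TPM there, NOVA1-204 was at 17.97% (33.5 to 35.1), NOVA1-210 at 44.6% (21.3 to 24.2), PTBP1-201 at 4.10% (16.5 to 17.8), PTBP1-203 at 18.3% (46.9 to 49.4), PTBP1-213 at 43.4% (0 to 0.328), PTBP2-206 at 40.2% (0 in each) and ELAVL2-201 at 6.42% (16.4 to 16.97). Inclusion there was 87.9% for the ELAVL2 39-base exon (75.4 to 76.7), 73.9% for the NOVA1 72-base exon (52.9 to 54.6), 88.1% for the PTBP1 78-base exon (77.5 to 78.9) and 49.1% for the PTBP1 34-base exon (99.1 to 99.8).

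In treated replicate 5, PTBP1 was at 307 CPM (others 378 to 393), RBFOX3-213 at 17.03% of its gene (3.94 to 5.19), the RBFOX3 93-base exon at 59.2% (45.4 to 46.2) and the RBFOX2 40-base exon at 71.1% (80.1 to 81.7). In treated replicate 4, the ELAVL4 87-base exon was at 31.5% (37.4 to 38.3).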

How the results depend on the processing

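ELAVL2, RBFOX2 and the PTBP2 34-base exon kept direction and call under every alternative run. The number of genes changed at gene level (11461) stayed within 1.5 times under all 13 alternatives. Transcripts changed in usage (1368) came to 6138 with limma voom and to 752 to 2343 on leaving out 1 library; genes changed in usage (1010) to 3376 and to 586 to 1485. Genes changed in coding share (1005) came to 608 with at least 5 TPM in each sum, 1882 with no filter, 568 with the replicate block and 574 to 1918 on leaving out 1 library. Cassette exons changed (2060) came to 840 with at least 5 TPM in each sum and 1393 to 3064 on leaving out 1 library. The causes were not tested.

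Values near 0 changed sign. The log2 fold change of NOVA2 was -0.069 with library totals, and that of PTBP1 ran from -0.11 to 0.014 on leaving out 1 library. The log2 odds of exons ran from -0.042 to 0.27 for the NOVA1 102-base exon, -0.043 to 0.36 for the RBFOX3 93-base exon, -0.040 to 0.24 for the RBFOX2 40-base exon and -0.25 to 0.036 for the RBFOX2 120-base exon. The PTBP2 coding share ran from -0.92 to 0.18. Library totals shifted the median gene by -0.098 and lowered the share of rises among calls to 37.9% (4280 rises), against 47.8% (5484).

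Same-numbered libraries correlated by -0.08 to 0.03 in their deviations from group means, and differently numbered ones by -0.14 to 0.15. With 4 libraries per group these values cannot show whether a pairing exists. The main tests did not use the number. The replicate block left 10764 genes changed at gene level, passed ELAVL4 (adjusted p = 0.0484, edgeR), and lost ELAVL2-201 (0.0675), the ELAVL2 39-base exon (0.0602) and the RBFOX2 32-base exon (0.0649).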
